A study of Oryza sativa with 18 samples.

Results

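The fall of DNA methylation in rice embryos over 24 h without oxygen was described here in 5908 short genomic regions, in 3 libraries of embryos after 24 h in nitrogen and 3 libraries of embryos of the dry seed, out of 18 libraries in the series. All embryos were wild-type Oryza sativa cv Amaroo. For the nitrogen group, de-hulled and sterilised seeds were kept for 24 h in the dark at 30 °C in MES medium bubbled with nitrogen gas, and the embryos were then dissected and frozen. For the dry seed group (0 h), embryos were taken straight from de-hulled seeds. Embryos after 24 h in the same medium bubbled with air (3 libraries) were used where a result in nitrogen is set beside air. The remaining 9 libraries were from whole coleoptiles of the same cultivar, medium, darkness and temperature, 3 after 4 d in nitrogen, 3 after 3 d in nitrogen and then 1 d in air, and 3 after 4 d in air with the primary leaf removed. They were used for the spread between libraries in the model of each region and to set remaining levels side by side. The regions are all those of the table in which the authors list differentially methylated regions between dry seed and 24 h embryos in either gas, so a difference in these libraries is what put a region there. Counts of regions that fell describe this table and are no independent evidence of a fall. The libraries of a group are not said to come from separate cultures, so p-values measure the spread between libraries, which may be technical.

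In plants, methyl groups sit on cytosines followed by G (CG), on CHG and on CHH, where H is any base but G. CG methylation is copied to the new strand after DNA replication by MET1, CHG methylation is maintained by chromomethylases, and CHH methylation has to be set again by RNA-directed methylation or by chromomethylases. Methylation is lost when it is not copied during replication, or is removed by DNA glycosylases of the ROS1/DEMETER family. Rice is known for germinating without oxygen, with an embryo that feeds on starch and a coleoptile that elongates while root and leaf stay small.

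Methylation was read by MethylC-seq, in which bisulfite converts unmethylated but not methylated cytosines. The level of a region is the deposited percent of its reads that were methylated, used where a library had 10 or more reads in the region. This left 5862 to 5877 regions per nitrogen library and 5907 to 5908 per dry seed library. Reads over the regions summed to between 906824 and 1067876 per nitrogen library and between 1839145 and 2150760 per dry seed library, and these sums are not the depth of the libraries. The regions were 3 to 393 bp long, with a median of 58 bp, and held between 3 and 90 differentially methylated sites that the authors listed, with a median of 7. The deposited names leave open in which context the cytosines were counted. Embryos are mixtures of cells, so a partial level in every cell and a full level in some cells cannot be told apart.

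Nearly every region was less methylated after 24 h in nitrogen, and most kept a clear remainder. The mean level over the regions was 29.0%, 29.2% and 29.4% in the nitrogen libraries, against 70.2%, 66.9% and 68.2% in the dry seed libraries. The groups did not overlap, the nitrogen libraries lay closer together than the dry seed libraries, and the means differed by -39.2 points (nitrogen minus dry seed). An exact two-sided permutation test gave p = 0.1, the smallest value that 3 against 3 libraries allow. The whole distribution moved. Levels of 50% or more were found in 16.5% ± 0.305 of regions in nitrogen and in 86.7% ± 2.67 in the dry seed (SD, n = 3 each), and levels under 10% in 19.8% ± 0.797 in nitrogen and in 0.0508% ± 0.0448 in the dry seed.

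**Figure D1:**
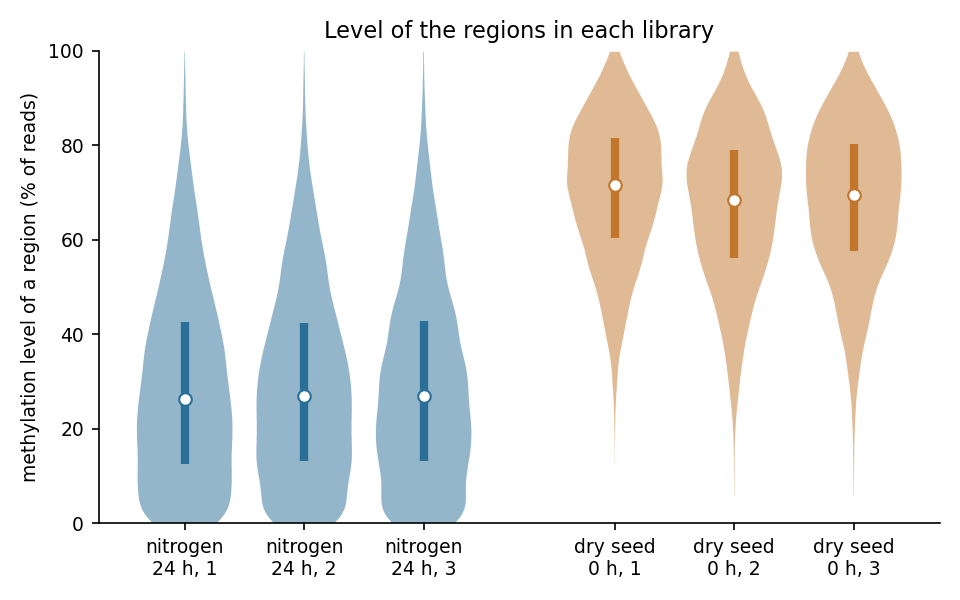
Distribution of the methylation level (y axis, percent of reads methylated) over all regions with 10 or more reads, in each of the 3 nitrogen libraries and the 3 dry seed libraries. White points are medians and thick bars the interquartile range. The medians of the nitrogen libraries lie between 26.4% and 26.9%, below the lower quartile of every dry seed library.

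Expressed relative to the start, the regions together lost 57.3% ± 0.298 of their methylation in nitrogen (SD over 3 nitrogen libraries, each against the mean of the dry seed). Over single regions the relative loss was broad, from 41.5% at the lower to 77.5% at the upper quartile around a median of 59.6%. Of 5906 regions with a level in both groups, 3747 (63.4%) lost 50% or more of their starting level, 623 (10.5%) lost 90% or more, and 324 (5.49%) lost less than 20%. The middle region lost 38.1 points, and the quartiles were 27.5 and 49.9 points. Between the 3 nitrogen libraries, the relative loss of a region had a median SD of 7.43 points. The quartiles over regions lay 36.1 points apart, which is a different measure of spread. The SD leaves out the dry seed libraries, whose level in a region had a median SD of 6.72 points. Among well-read regions the SD of the relative loss ran from 0 in the 3 steadiest regions to between 40.2 and 49.2 points in the 3 most variable.

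The quasi-binomial model, which compares methylated with total reads and takes its spread from the libraries, called 5707 of 5892 tested regions lower in nitrogen (96.9%, Benjamini-Hochberg adjusted p under 0.05 and a difference of 10 points or more). It called 0 (0%) higher, whereas limma found 1 such region from the levels. Before adjustment, 5770 regions of either direction had p under 0.05. Every nitrogen library lay below every dry seed library in 5485 of 5808 regions (94.4%). The 185 tested regions that were not called stood at a median of 66.9% in nitrogen and 76.9% in the dry seed, and 131 of them differed by less than 10 points. In 6 regions the mean was above that of the dry seed. The largest of these differences, chosen after its values were seen, was in a 17 bp region on chromosome 9 from 22628729 to 22628745, with 46.9%, 24.1% and 67.5% in nitrogen against 14.3%, 31.8% and 7.56% in the dry seed. These libraries overlap, and the adjusted p of the quasi-binomial model was 0.0876. It was called higher by limma and by the quasi-binomial model without nitrogen library 2 (adjusted p = 0.0405).

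With bins cut from all dry seed libraries, the regions that started highest lost more points than the others but a smaller part of their methylation. Regions that started at 90% or more (235 regions) stood at 48.5% ± 0.217 in nitrogen and 92.7% ± 0.194 in the dry seed (SD, n = 3 each), an absolute loss of 44.2 points and a relative loss of 47.7% ± 0.216. Regions that started at 80 to 90% (1103 regions) lost 41.3 points or 48.9% ± 0.364, and those at 60 to 80% (2944 regions) lost 40.5 points or 57.7% ± 0.394. Regions at 40 to 60% (1482 regions) stood at 16.9% ± 0.213 in nitrogen and 52.3% ± 2.31 in the dry seed, a loss of 35.4 points or 67.7% ± 0.406. The 144 regions under 40% lost 24.8 points or 69.8% ± 1.64. The relative losses of the 3 nitrogen libraries did not overlap between the bins of 40 to 60%, 60 to 80% and 80 to 90%, whereas those of the lowest bin overlap with those at 40 to 60%.

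**Figure D2:**
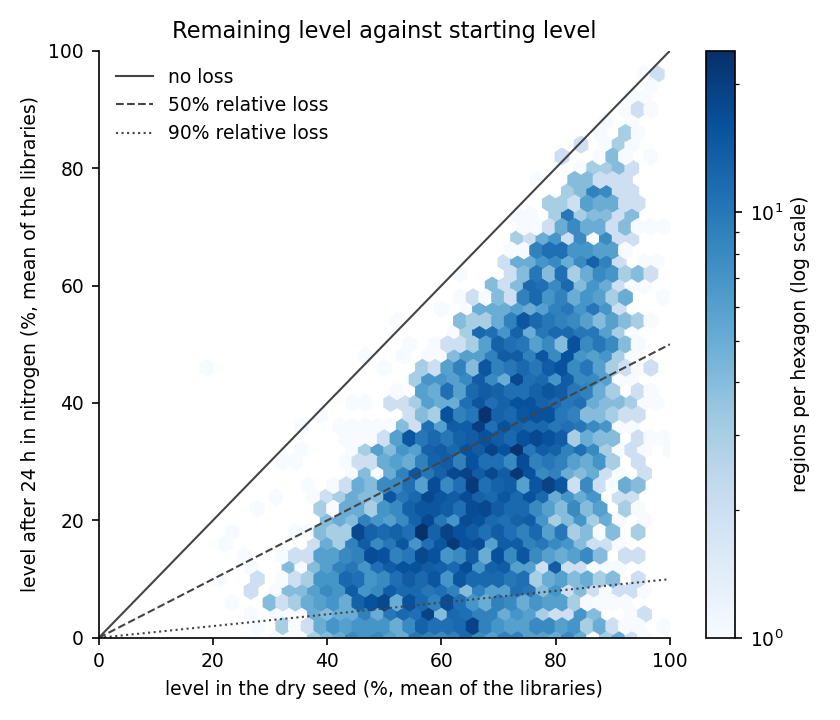
Level after 24 h in nitrogen (y axis, %) against the level in the dry seed (x axis, %), both as means over libraries, with the number of regions per hexagon on a log colour scale. Nearly all regions lie under the line of no loss, and the cloud widens to the right, where regions with the same start kept anything from almost none to almost all of it.

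The regions of every bin had to pass the authors' choice of a difference. A drop of the same number of points is a larger part of a low start than of a high one. The part of this choice in the relative loss by start was not tested. A bin cut from the same libraries as the loss also favours chance lows on the left and chance highs on the right. For this second point, the bins were also cut from 1 dry seed library and the loss taken from the other dry seed libraries. The authors' choice stays in place with such bins. The absolute loss then varied less between bins, by an amount that depended on the library. The bins also lay closer together in the libraries from which the loss was taken. There, regions binned under 40% stood above 40% and those binned at 90% or more stood below 90%, whichever library was used. For library 2 these levels were 50.6% and 86.2%, against 35.5% and 92.7% with bins from all dry seed libraries. The part of this narrower range in the smaller variation was not tested. With bins from dry seed library 1, the absolute loss was higher in each bin than in the one below. It was 42.8 points at 90% or more, 39.2 at 80 to 90%, 38.3 at 60 to 80%, 36.05 at 40 to 60% and 34.4 under 40%. With bins from library 2, it was 40.3 points at 90% or more, 39.0 at 80 to 90%, 40.6 at 60 to 80%, 39.6 at 40 to 60% and 37.1 under 40%, with no steady order. With bins from library 3, it was 40.7 points at 90% or more, 39.6 at 80 to 90%, 39.8 at 60 to 80%, 38.2 at 40 to 60% and 36.7 under 40%. The difference in absolute loss between starts of 90% or more and of 40 to 60% was 8.77 points with bins from all dry seed libraries, and 6.79, 0.701 and 2.53 points with bins from library 1, 2 and 3. The difference in relative loss between the same bins was -20.05 points with all libraries, and -15.7, -20.6 and -18.4 points with bins from library 1, 2 and 3. The read minimum mattered as well. Among regions with 30 or more reads in all 6 libraries, bins from all dry seed libraries gave 1.32 points (absolute) and -27.9 points (relative).

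**Figure D3:**
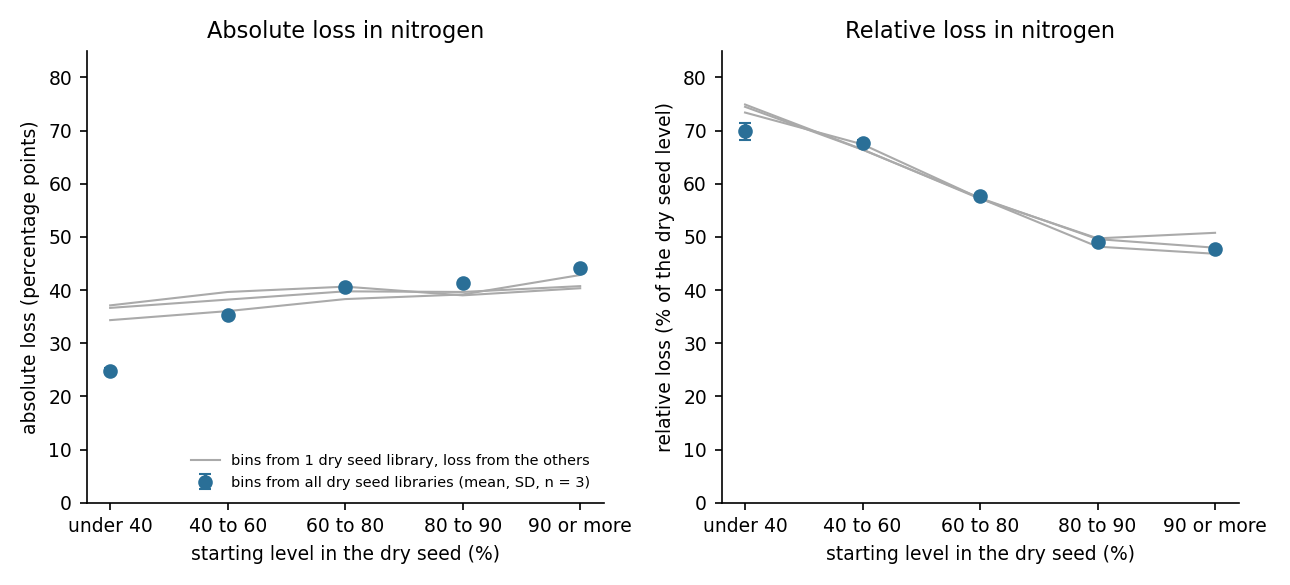
Absolute loss in percentage points (left) and relative loss in percent of the dry seed level (right) by starting level. Points are means over the 3 nitrogen libraries with their SD, and grey lines the same with bins cut from 1 dry seed library and the loss taken from the others. The relative loss is lower at starts of 80% or more than at starts under 60% on every line, with a small upturn in the highest bin for dry seed library 1 (50.8% against 49.7% at 80 to 90%). The grey lines of absolute loss rise less than the points, most for library 1, where they run from 34.4 to 42.8 points.

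A high start left room for very different outcomes. Among regions that started at 90% or more, 23 (9.79%) kept a level under 10% and 125 (53.2%) kept at least 50% of their start. Among those that started at 40 to 60%, 456 (30.8%) kept a level under 10% and 298 (20.1%) at least 50% of their start. In all, 1050 regions stood under 10% in nitrogen, 455 at 60% or more and 40 at 80% or more.

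The regions that lost everything were not confined to low starts. The 4 shown were the first by position of 20 with a relative loss of 100% among the 4687 regions that started at 50% or more with at least 30 reads in all 6 libraries. On chromosome 1 from 14129441 to 14129487 (47 bp), the level was 0% in each nitrogen library, against 93.7%, 66.2% and 85.2% in the dry seed libraries. The 146 nitrogen reads allow a level of up to 2.05% if every count is independent (3 counts of the total; this limit covers counting error only). The sources used here do not give whether the same DNA molecule was counted at several sites. If it was, the limits given here may be too low. Total reads rose with region length (Spearman correlation 0.81 in nitrogen), which can occur in either case. The region on chromosome 1 from 17209749 to 17209862 (114 bp) was at 0% of 725 nitrogen reads, a limit of 0.414%, against 59.9% ± 8.40 in the dry seed (SD, n = 3). The 74 bp region of chromosome 2 from 19639950 to 19640023 stood at 65.0% ± 5.26 in the dry seed, the 60 bp region of chromosome 4 from 10583143 to 10583202 at 69.8% ± 3.95, and every nitrogen library was at 0% in both. Their limits were 1.19% and 0.843%. All 4 were called lower, with adjusted p of at most 4.9e-06 in the quasi-binomial model. They were picked by their loss in these same libraries, so the calls are no independent evidence.

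At the other end, 4 regions of the same set hardly differed between the groups. The 36 bp region on chromosome 3 from 4441664 to 4441699 had 77.2%, 84.8% and 86.3% in nitrogen, against 87.3%, 77.9% and 80.6% in the dry seed. The 190 bp region on chromosome 3 from 13459003 to 13459192 had 78.8%, 77.5% and 78.5% in nitrogen, against 60.5%, 84.6% and 85.8% in the dry seed, where 1 library lies far below the others. The 15 bp region on chromosome 7 from 6840503 to 6840517 had 54.4% ± 7.98 in nitrogen and 52.6% ± 14.6 in the dry seed, and the 8 bp region on chromosome 3 from 34391015 to 34391022 had 95.7% ± 1.65 in nitrogen and 96.2% ± 3.99 in the dry seed (SD, n = 3 each). The libraries of the groups overlap in all 4, none was called, and the adjusted p was at least 0.61. As the regions were picked for a small loss in these libraries, this describes the pick.

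The middle of the range is a partial loss that the libraries repeat. The region on chromosome 11 from 11762539 to 11762624 (86 bp, 24 listed sites) had 34.2%, 42.5% and 36.05% in nitrogen, against 79.5%, 81.1% and 90.5% in the dry seed, a relative loss of 55.1%. The region on chromosome 1 from 28198725 to 28198771 (47 bp, 3 listed sites) had 28.2%, 30.2% and 27.4% in nitrogen, against 62.7%, 61.1% and 67.3% in the dry seed. The 73 bp region of chromosome 7 from 25346998 to 25347070 and the 49 bp region of chromosome 12 from 19416271 to 19416319 had 28.7% ± 6.80 and 23.4% ± 4.55 in nitrogen, against 63.9% ± 8.18 and 52.3% ± 5.32 in the dry seed. The groups did not overlap in any of the 4, and all were called lower with adjusted p of at most 0.000432 in the quasi-binomial model. Picked by their loss in these libraries, the regions give no independent evidence.

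Regions with a low start could be emptied as fully as the others. On chromosome 4 from 2454339 to 2454417 the level was 0%, 0% and 1.02% in nitrogen, against 33.3%, 47.3% and 38.8% in the dry seed. On chromosome 8 from 5783074 to 5783085 it was 1.26%, 0% and 0% in nitrogen, against 38.2%, 33.05% and 40.9% in the dry seed. On chromosome 5 from 13190575 to 13190656 it was 0%, 0% and 1.76% in nitrogen, against 47.998%, 34.9% and 21.4% in the dry seed. These were the 3 largest relative losses, at 98.3% to 99.1%, among regions that started under 40% with 30 reads in every library. The groups overlap in none of them, which describes regions picked by this loss.

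Longer regions had a slightly smaller relative loss and about the same absolute loss. The relative loss was 54.3% ± 0.0770 in regions of 100 bp or more (988 regions), 56.2% ± 0.338 at 60 to 99 bp (1886 regions), 58.8% ± 0.423 at 30 to 59 bp (1678 regions) and 59.1% ± 0.457 under 30 bp (1356 regions; SD over 3 nitrogen libraries). The absolute loss was 39.1, 38.5, 39.9 and 39.1 points in the same order. Long regions started a little higher, at 72.0% ± 1.65 against 66.5% ± 1.49 in the dry seed for the shortest. The difference between the longest and the shortest bin, -4.78 points of relative loss, shrank to -1.64 points among regions that started at 60 to 80%. It was -0.177 points among regions with 30 or more reads in all 6 libraries. The 4 longest regions show partial losses with many reads. On chromosome 3 from 36413398 to 36413769 (372 bp, 90 listed sites) the level was 28.4%, 25.4% and 27.4% in nitrogen, against 82.8%, 81.3% and 76.6% in the dry seed. On chromosome 5 from 17879262 to 17879654 (393 bp) it was 28.4% ± 0.346 in nitrogen and 57.7% ± 8.62 in the dry seed. The other long regions, of 364 bp on chromosome 11 from 27508403 to 27508766 and of 355 bp on chromosome 8 from 13696803 to 13697157, stood at 14.2% ± 1.08 and 15.4% ± 2.17 in nitrogen and at 62.5% ± 0.250 and 50.8% ± 3.63 in the dry seed.

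How densely a region was packed with listed sites went with the loss much more than its length. The relative loss was 69.0% ± 0.523 in regions with 30 or more listed sites per 100 bp (648 regions), 66.9% ± 0.189 at 20 to 30 (1356 regions), 60.1% ± 0.330 at 10 to 20 (2434 regions) and 39.0% ± 0.549 under 10 (1470 regions). The bins started alike, at 70.5%, 69.3%, 66.7% and 69.5% in the dry seed, and stood at 21.8%, 22.9%, 26.6% and 42.4% in nitrogen. Within starts of 80 to 90%, the relative loss was 65.5% ± 0.379 in the densest and 31.4% ± 0.562 in the sparsest bin, and within starts of 40 to 60% it was 73.4% ± 0.923 and 53.4% ± 0.587. At 10 to 20 listed sites per 100 bp, the longest regions lost 64.9% ± 0.254 and the shortest 53.6% ± 0.492, the opposite of the order over all regions. The sites were listed by the authors from these libraries, so their number is not independent of the loss. The sparsest regions also held more reads per listed site, with medians of 40.4 in nitrogen and 73.6 in the dry seed, against 8.89 and 18.7 in the densest. The sources used here do not give whether reads over cytosines that were not listed entered the levels, and their part in the result was not tested.

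**Figure D4:**
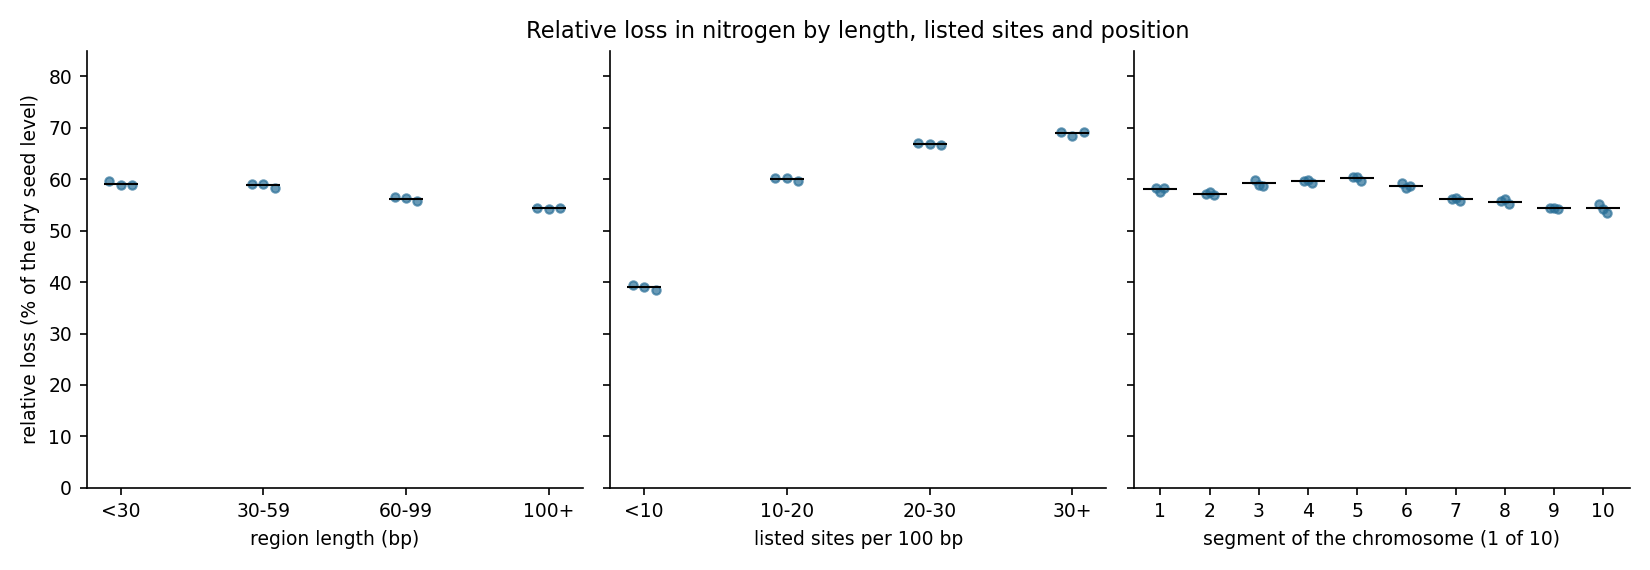
Relative loss in nitrogen (y axis, percent of the dry seed level) by region length in bp (left), listed sites per 100 bp (middle) and segment of the chromosome, numbered 1 to 10 from its start (right). Each point is 1 of the 3 nitrogen libraries against the mean of the dry seed, and black bars are means. The spread by listed sites, from 39.0% to 69.0%, is wider than that by length or by position.

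The fall was found along every chromosome with small differences. The relative loss lay between 55.2% ± 1.21 on chromosome 1 and 60.6% ± 0.488 on chromosome 11, with chromosome 12 at 59.8% ± 0.936 and chromosome 3 at 55.4% ± 0.135. Values of chromosomes next to each other in this order mostly lie within each other's spread. Chromosomes were divided into 10 equal segments up to the end of their last region, since no genome of the build of the table was used. The relative loss was highest in segment 5, at 60.2% ± 0.476, and lowest in segments 9 and 10, at 54.4% ± 0.154 and 54.3% ± 0.833, and these segments started at 70.0%, 68.3% and 67.4%. Segments 1 and 10 together lost 56.2% ± 0.434 and segments 5 and 6 59.4% ± 0.403, a difference of -3.15 points. This difference was -1.80 points among regions that started at 60 to 80% and -0.306 points among regions with 10 to 20 listed sites per 100 bp, below the SD of 0.682 points over the nitrogen libraries.

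Over the 312 windows of 1 Mb with 10 or more regions, the relative loss was 57.0% at the median and 52.2% and 61.3% at the quartiles. The lowest were on chromosome 3 from 4 to 5 Mb with 34.4% ± 1.86 (19 regions), chromosome 5 from 28 to 29 Mb with 35.5% ± 1.80 (17 regions) and on chromosome 3 from 34 to 35 Mb with 35.5% ± 2.62 (11 regions). The highest were on chromosome 9 from 8 to 9 Mb with 73.6% ± 0.795 (11 regions), on chromosome 4 from 17 to 18 Mb with 73.3% ± 2.25 (12 regions) and on chromosome 11 from 24 to 25 Mb with 73.0% ± 0.787 (20 regions). The last of these stood at 19.7% ± 0.575 in nitrogen and 73.1% ± 1.65 in the dry seed, whereas the window of chromosome 3 from 4 to 5 Mb stood at 43.9% ± 1.25 in nitrogen and 67.0% ± 2.20 in the dry seed. The windows are the extremes of 312, so their values are a description. Neighbouring regions resembled each other only at short range. The Pearson correlation of their relative loss across pairs was 0.219 for 295 pairs under 1 kb apart, some of which can share reads, 0.0142 for 1003 pairs at 1 to 10 kb, 0.0122 for 3469 pairs at 10 to 100 kb and 0.0449 for 1124 pairs farther apart.

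The reads behind the fall changed unequally. Summed over the regions, methylated reads were 312259 to 365681 per nitrogen library and 1306660 to 1571640 per dry seed library, and the dry seed mean was 4.18 times the nitrogen mean. Unmethylated reads were 594565 to 702195 per nitrogen library and 527172 to 579115 per dry seed library, and the dry seed mean was 0.865 times the nitrogen mean. The groups did not overlap in either sum, and each had p = 0.1 in the exact two-sided permutation test, the smallest possible. In a typical region, unmethylated reads were somewhat higher in nitrogen. Their log2 ratio (nitrogen over dry seed, 0.5 reads added) was 0.23 at the median and 0.0019 and 0.50 at the quartiles. Methylated reads fell by 2.34 on the log2 scale at the median. Unmethylated reads differed by less than 1.5 times between the groups in 79.5% of regions. Total reads were higher in nitrogen in 28 of the 5908 regions.

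The shortfall of reads grew with the starting level. The median log2 ratio of total reads (nitrogen over dry seed) was -1.67 in regions that started at 90% or more, -1.31 at 80 to 90%, -0.97 at 60 to 80%, -0.67 at 40 to 60% and -0.45 under 40%. In regions that started at 80 to 90%, the median region held 52.9 methylated and 74.9 unmethylated reads in nitrogen, against 302.4 methylated and 54.8 unmethylated reads in the dry seed. In regions that started at 40 to 60%, it held 16.6 methylated and 102.3 unmethylated reads in nitrogen, against 104.8 and 92.6 in the dry seed. Across regions, the Spearman correlation of the log2 read ratio was -0.52 with the starting level and -0.53 with the absolute loss (5906 regions; the ratio and the levels are made from the same reads). The counts are not scaled to the depth of the libraries, which the sources used here do not give. Among the 4499 regions whose reads, scaled to the total over the table, differed less than 1.5 times, the relative loss was 56.1% ± 0.278. Unequal reads in the groups and a change of the methylated share were not separated, and the part of read number in the fall was not tested.

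**Figure D5:**
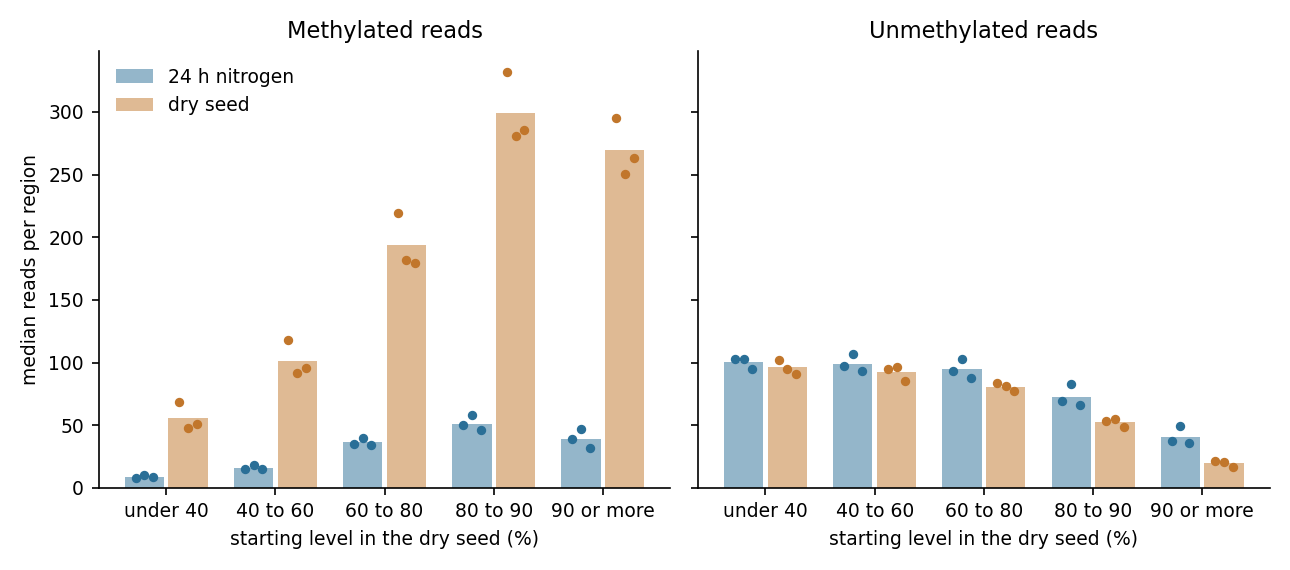
Median methylated reads (left) and unmethylated reads (right) per region, by starting level, in 24 h nitrogen and in the dry seed. Bars are means over 3 libraries and points the libraries. Methylated reads are several times higher in the dry seed in every bin. Unmethylated reads of the groups overlap at starts under 60% and are higher in every nitrogen library at starts of 60% or more.

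Set beside air, the loss in nitrogen was slightly smaller. The regions lost 57.6%, 57.3% and 57.0% in the nitrogen libraries and on average 61.9% ± 1.62 in the 24 h air libraries (SD, n = 3), each against the same dry seed mean, a difference of -4.64 points. No nitrogen library reached the air mean, and the exact two-sided permutation test gave p = 0.1, the smallest possible. The relative loss was below that of air by a like amount in regions that started at 90% or more (47.7% in nitrogen and 53.2% in air), at 60 to 80% (57.7% and 62.3%) and at 40 to 60% (67.7% and 72.3%). In regions with under 10 listed sites per 100 bp it was 39.0% in nitrogen and 45.4% in air, and in those with 30 or more it was 69.0% and 73.1%. Of 5886 regions tested between the gases with the quasi-binomial model, 1 was called higher in nitrogen (0.017%) and 0 lower. This 36 bp region on chromosome 8 from 24216619 to 24216654 had 96.1%, 95.6% and 95.6% in nitrogen, against 71.5% ± 4.24 in air and 98.2%, 96.9% and 96.1% in the dry seed. It lost 1.35% of its start in nitrogen. The call (adjusted p = 0.0169) was lost with the spread of both 24 h groups alone, without any of the nitrogen libraries and without air library 1 or 3.

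The remaining level of a region recurred in libraries that had no part in setting it. Regions with under 10% left in nitrogen at 24 h (1050 regions) stood at 5.08% ± 0.631 after 24 h in air and, in coleoptiles, at 5.64% ± 0.217 after 4 d in nitrogen and 3.83% ± 0.171 after 4 d in air. Regions with 40 to 60% left (1172 regions) stood at 42.95% ± 1.39 in 24 h air, 48.4% ± 0.786 in 4 d nitrogen and 39.4% ± 0.711 in 4 d air, and regions with 60% or more left (455 regions) at 61.3% ± 1.36, 67.8% ± 0.455 and 58.7% ± 1.00 (SD, n = 3 each). The coleoptiles given 3 d of nitrogen and then 1 d of air stood far higher, at 51.9% ± 1.06 where under 10% was left and at 75.2% ± 0.591 where 60% or more was left. Across regions, the Spearman correlation of the level in 24 h nitrogen with that in 24 h air was 0.937 over the regions with both levels, and both groups had a part in the authors' choice of the regions. Fewer listed sites went with more left: the median was 10 sites in regions with under 10% left and 4 in regions with 60% or more left. The sites were listed from these libraries, so their number is not independent of the level left.

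The authors' deposited table also names the libraries that were low in a region. By that list, 2215 regions (37.5%) had all 3 nitrogen libraries low, 1973 had 2, 1344 had 1 and 376 had none. The median relative loss by the levels was 63.04% where all 3 were listed in the authors' deposited table and 49.8% where none was. The list rests on these same libraries, so this order is not independent of it. In 374 of the 376 regions without a nitrogen library listed as low, the list named an air library. A nitrogen library was named as high in 126 regions of the authors' deposited table, beside dry seed libraries.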

How the data were processed

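DNA from embryos was read by MethylC-seq, with 600 ng of genomic DNA per library and 0.5% lambda DNA added, per the labels' protocols. The sources used here do not give the aligner, the caller of the regions, the genome build or the depth of the libraries. Per the file headers, the table of the dry seed against both 24 h groups gives for each region and library a count of total reads, a methylated value and a percent. The deposited methylated values are estimated counts: in each library all are whole numbers (within 0.01) times a factor of 0.9977 to 0.9983, and their deposited percent of the total reads is the level. They were rounded to the nearest whole read for the quasi-binomial model. The column names give CG and the table's own name another context, so the context is left unnamed.

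Computed here were levels with 10 or more reads per library and region, relative losses (100 times 1 minus the mean level of a nitrogen library over the mean dry seed level) and a quasi-binomial model per region over all 6 groups, with a dispersion of at least 1, at least 2 libraries per compared group, an F test and Benjamini-Hochberg adjustment over all regions (Python 3.11.15, numpy 2.4.6, scipy 1.17.1, pandas 2.3.3). The model was tested on simulated data. An alternative used limma 3.58.1 in R 4.3.3. Single values were compared with exact two-sided permutation tests.

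The named regions are, among those with 30 or more reads in all 6 libraries and a start of 50% or more, the 4 with the largest, smallest and most median relative loss, with ties taken in order of position, and also the 4 longest regions and the 3 largest relative losses among starts under 40%. The regions, bins and rules were chosen with earlier results of these data known. Without a genome of the build, no gene, context or sequence was assigned, and 7 regions on a sequence named S were left out of the results by position. Intervals and limits cover counting error only, with every count taken as independent. Alternatives were other read minimums, weights, dispersions, thresholds, the replicate block, leaving out each library, and, chosen after seeing the data, regions of 10 to 20 listed sites per 100 bp only.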

Additional observations from a re-analysis of the deposited data

Results flagged for a closer look

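On chromosome 8 from 24216619 to 24216654, nitrogen and air differed in the quasi-binomial test of that difference. The level was 95.8% ± 0.288 in 24 h nitrogen and 71.5% ± 4.24 in 24 h air (SD, n = 3 each), a difference of 24.3 points (adjusted p = 0.0169, between 0.0161 and 0.706 over its alternatives). All 3 nitrogen libraries were above all 3 air libraries.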

How the results depend on the processing

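The count of regions lower in nitrogen, 5707, ranged between 5169 and 5718 over its alternatives, and between 5476 and 5657 with 1 library left out. No pairing by number was seen in the levels: deviations of same-numbered nitrogen and dry seed libraries correlated at -0.0174, -0.0259 and -0.0086. Such deviations also hold counting error, so a shared origin of same-numbered libraries was not excluded. With the replicate block, 5688 regions were lower, and the block ended no call between nitrogen and air. The mean difference of -39.2 points cannot change under a block of equal groups, so its staying the same shows nothing. The count of higher regions was 1 with limma and 0 to 1 with a library left out. The count between nitrogen and air was 0 with the dispersion of the compared groups alone, 5 with limma and 0 to 1 with a library left out. The cause of these changes was not tested.

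With 30 reads in each compared library, the relative loss over all regions was 55.6%, the share under 10% was 18.1%, and the differences were -27.9 points (relative) and 1.32 points (absolute) between starts of 90% or more and 40 to 60%, -0.177 points between long and short regions and -3.22 points between outer and middle segments of the chromosomes. Weighted by reads, the relative loss was 52.1% and the share under 10% was 13.2%. With medians of single regions, the relative loss was 59.5% and the differences were -23.8 (start), -7.51 (length) and -3.74 points (position). With starts from dry seed library 1 or 3, the relative difference by start was -15.7 or -18.4 points, and with starts from library 1, 2 or 3 the absolute one was 6.79, 0.701 or 2.53 points. Within starts of 60 to 80%, the difference by length was -1.64 and that by position -1.80 points. With scaled reads within 1.5 times, these were -6.62 and -2.20 points, and the relative loss was 56.1%. The difference by length reversed to 11.3 points at 10 to 20 listed sites per 100 bp. With the number of listed sites in place of length, a different contrast, regions with 13 or more sites lost 22.7 points more than those with 4 or fewer. At that density the relative loss was 60.1%, the differences by start -24.0 (relative) and 6.20 points (absolute), and that by position -0.306 points. The cause was not tested. Leaving out 1 library gave 56.7% to 57.7% for the relative loss, 19.4% to 20.2% for the share under 10%, -20.9 to -16.2 (relative) and 7.72 to 12.1 points (absolute) by start, -4.91 to -4.54 points by length, -3.25 to -3.09 points by position, -5.50 to -3.89 points against air, and -40.0 to -38.3 points for the mean difference.

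In some regions the levels rest on few reads. Where the fewest reads in a library were 10 to 14 (84 regions), the median level was 15.2% in nitrogen and 74.7% in the dry seed. Over the 5906 regions with a level in both groups, the medians were 26.8% and 69.5%. The part of read number in this difference was not tested.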
